A study of Mus musculus with 6 samples.

Results

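Recurrent intronic H3K27ac regions are stretches of the mouse genome that carried acetylated histone H3 lysine 27 in most retinal samples and lie inside the introns of genes, away from any transcription start site (TSS). They were found by merging the peaks of 6 deposited lists on chromosomes 1 to 19, X and Y into 39942 union regions. Regions were selected on detection, at least 4 of the 6 lists covering them, and on position, the midpoint falling in an intron and outside every exon of the annotation and both edges lying more than 2.5 kb from any annotated TSS. This left 2565 regions, 6.42% of all union regions and 15.5% of the 16590 regions of any kind that were covered in at least 4 lists. The rule uses detection in the lists, so the detection values below describe the choice and are not findings.

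The lists come from chromatin immunoprecipitation and sequencing (ChIP-seq) of bulk retina from wild-type mice, made with an antibody (ab4729) to H3K27ac. The 4xIOP group (3 samples) holds retinas of eyes whose intraocular pressure was raised to 30 mmHg for 1 h, repeatedly, 4 times in all. The control group (3 samples) holds retinas of contralateral eyes, left untreated. The mice were 3 months old at the first elevation, and all tissue was taken on day 2 after the 4th, so every sample in both groups comes from an animal that went through the pressure protocol. The comparison of the groups asks whether repeated mild pressure changes this mark in young retina. The labels also describe a dasatinib and a vehicle treatment, but attribute neither to these samples. The retina of each eye was processed on its own and pressure was raised in a single eye of each mouse, but which animal a sample came from is not given in the sources used here, so a p-value measures the spread between these samples. In 4 of the 6 lists (control replicates 1 and 2, 4xIOP replicates 1 and 2) the group name carried by the list itself is that of the other group. Every direction below is by the label. If the carried names are right instead, each group as labelled holds lists of both conditions, so a comparison of the groups speaks of the labels only. Over the 981 regions covered in all 6 lists, summit fragments ranked more alike in pairs of lists that carry the same name (mean Spearman coefficient 0.860, 0.808 to 0.883) than in pairs that carry different names (0.748, 0.651 to 0.814), whereas by the label the means were 0.778 within and 0.802 across groups. Lists held 16195 to 36509 peaks, with the most in control replicate 3 and the fewest in 4xIOP replicate 3. The promoters of 24 of 27 rod genes were covered in all 6 lists against 1 of 15 lens, cornea and muscle genes. Between 87.4 and 173 fragments per 10000 bp formed their genome mean background.

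H3K27ac is laid down by the acetyltransferases p300 and CBP on nucleosomes beside active promoters and enhancers, and an acetylated intronic region far from a TSS is a usual candidate for an enhancer. In such a region transcription factors bind the DNA between the marked nucleosomes rather than on them. In the retina, where rods are the most numerous cell, the homeodomain factors CRX and OTX2 bind a core of the letters TAATCC, and NRL and the nuclear receptors RORB, NR2E3 and ESRRB act with them on photoreceptor genes. A bulk peak list averages over all retinal cell types. Fewer cells of a type and less of the mark per cell cannot be told apart in it.

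The reference sequence around the regions shows where the photoreceptor core motif lies. The windows that follow are 100 bp of the GRCm38 reference, forward strand, each centred on a TAATCC match (on either strand, in capitals) that lies 200 to 350 bp from the median summit of a recurrent intronic region. The distance is counted from the summit, so a match can lie beyond the edges of the region, as it does in 6 of the 8 windows (all but Rora and Rp1). The windows are given because the motif was most frequent at this distance from the summits, and they belong to the 8 genes of the rod and photoreceptor lists, Pde6a aside, that have such a match and the most lists, then the most summit fragments.
Mef2d (chr3:88147936-88148035, +): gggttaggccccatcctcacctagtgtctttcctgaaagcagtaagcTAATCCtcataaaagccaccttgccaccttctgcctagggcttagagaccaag
Gnb1 (chr4:155522458-155522557, +): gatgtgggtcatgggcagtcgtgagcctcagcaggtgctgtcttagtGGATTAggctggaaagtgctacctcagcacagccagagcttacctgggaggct
Slc24a1 (chr9:64934615-64934714, +): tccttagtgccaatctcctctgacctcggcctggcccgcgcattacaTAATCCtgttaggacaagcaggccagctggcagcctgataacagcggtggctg
Aipl1 (chr11:72032218-72032317, +): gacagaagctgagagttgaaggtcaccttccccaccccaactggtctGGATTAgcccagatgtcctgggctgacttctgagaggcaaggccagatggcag
Rora (chr9:69071733-69071832, +): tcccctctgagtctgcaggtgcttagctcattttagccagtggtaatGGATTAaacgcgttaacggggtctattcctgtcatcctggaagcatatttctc
Rp1 (chr1:4384159-4384258, +): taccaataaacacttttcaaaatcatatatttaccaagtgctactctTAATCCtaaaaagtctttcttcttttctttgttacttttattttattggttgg
Rdh12 (chr12:79216238-79216337, +): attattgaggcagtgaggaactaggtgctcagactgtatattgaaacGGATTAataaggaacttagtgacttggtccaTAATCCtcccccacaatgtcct
Thrb (chr14:17972266-17972365, +): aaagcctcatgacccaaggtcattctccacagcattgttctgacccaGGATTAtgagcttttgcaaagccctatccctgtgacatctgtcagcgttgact

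Slc24a1 encodes the rod sodium, calcium and potassium exchanger, Gnb1 the beta subunit of rod transducin, Rdh12 a retinol dehydrogenase, Aipl1 a chaperone of the rod phosphodiesterase, and Rp1 a microtubule protein of the outer segment. Mef2d, Rora and Thrb encode transcription factors that act in photoreceptors. The motif centre lay 230 to 339 bp from the summit in these 8 windows, upstream of it on the forward strand in Gnb1, Slc24a1, Rora and Rp1 and downstream in Mef2d, Aipl1, Rdh12 and Thrb. The Rdh12 window held 2 matches. Of the 53 recurrent intronic regions in the rod and photoreceptor lists, 14 (26.4%), in 12 of 26 genes, had a match at this distance, as did 26.5% of all 2565 regions.

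Around the summit itself the motif was sparse. The next windows are 300 bp of GRCm38, forward strand, centred on the median summit. They show the regions of highest and second highest fold percentile and the region that leads by it in each of the rod (here the second, since none is printed for Pde6a), photoreceptor transcription factor, photoreceptor structure, amacrine and Müller glia lists. Capitals mark TAATCC and the cores AGGTCA (nuclear receptors) and TGCTGA (NRL) on either strand.
Chl1 (chr6:103649054-103649353, +): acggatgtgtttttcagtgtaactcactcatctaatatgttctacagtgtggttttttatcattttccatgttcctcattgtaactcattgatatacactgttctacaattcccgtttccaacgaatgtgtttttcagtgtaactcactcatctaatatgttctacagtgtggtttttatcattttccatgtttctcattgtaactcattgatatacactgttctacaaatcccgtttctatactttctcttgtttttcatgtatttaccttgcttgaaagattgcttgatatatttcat
2210408I21Rik (chr13:77438829-77439128, +): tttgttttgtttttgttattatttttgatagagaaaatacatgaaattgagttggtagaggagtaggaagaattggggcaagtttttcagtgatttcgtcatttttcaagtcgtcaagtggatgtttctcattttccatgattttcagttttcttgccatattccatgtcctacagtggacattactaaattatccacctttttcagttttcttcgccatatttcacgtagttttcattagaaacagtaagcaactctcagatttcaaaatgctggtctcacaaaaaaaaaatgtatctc
Abca4 (chr3:122096476-122096775, +): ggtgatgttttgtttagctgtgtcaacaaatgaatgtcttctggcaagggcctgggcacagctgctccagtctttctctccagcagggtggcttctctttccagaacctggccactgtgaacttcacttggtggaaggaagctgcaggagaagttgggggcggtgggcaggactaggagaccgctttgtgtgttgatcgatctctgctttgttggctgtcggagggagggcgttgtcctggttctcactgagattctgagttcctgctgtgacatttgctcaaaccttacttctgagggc
Esrrb (chr12:86403000-86403299, +): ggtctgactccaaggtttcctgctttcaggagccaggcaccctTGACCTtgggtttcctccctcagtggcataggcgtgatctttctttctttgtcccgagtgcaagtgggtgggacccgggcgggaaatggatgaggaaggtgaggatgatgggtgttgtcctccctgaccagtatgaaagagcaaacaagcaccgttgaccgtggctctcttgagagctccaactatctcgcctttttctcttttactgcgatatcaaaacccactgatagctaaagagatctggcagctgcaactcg
Rp1 (chr1:4383357-4383656, +): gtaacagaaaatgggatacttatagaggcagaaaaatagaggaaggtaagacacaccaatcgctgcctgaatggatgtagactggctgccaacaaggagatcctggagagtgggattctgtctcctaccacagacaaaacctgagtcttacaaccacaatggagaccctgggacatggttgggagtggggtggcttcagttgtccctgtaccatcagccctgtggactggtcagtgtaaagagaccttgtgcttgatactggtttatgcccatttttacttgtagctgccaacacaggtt
Meis1 (chr11:18916939-18917238, +): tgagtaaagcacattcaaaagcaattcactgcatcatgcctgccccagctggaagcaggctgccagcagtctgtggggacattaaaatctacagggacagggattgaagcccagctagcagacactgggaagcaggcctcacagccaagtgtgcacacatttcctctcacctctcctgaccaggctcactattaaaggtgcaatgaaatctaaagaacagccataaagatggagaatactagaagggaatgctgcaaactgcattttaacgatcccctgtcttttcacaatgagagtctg
Nfix (chr8:84752068-84752367, +): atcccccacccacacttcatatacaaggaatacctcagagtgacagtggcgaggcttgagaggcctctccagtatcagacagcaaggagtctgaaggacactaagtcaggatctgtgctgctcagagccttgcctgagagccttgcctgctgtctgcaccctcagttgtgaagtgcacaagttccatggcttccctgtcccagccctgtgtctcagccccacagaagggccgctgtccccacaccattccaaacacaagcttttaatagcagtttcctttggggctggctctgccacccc

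In these 7 windows a single match was found, an AGGTCA on the reverse strand in the first intron of Esrrb, itself the gene of an orphan nuclear receptor. The Chl1 window repeats a block of its own sequence, and it has 2 further copies in the genome. Both windows of highest fold were poor in GC (32.3% in Chl1, 32.7% in 2210408I21Rik), whereas the other 5 held 47.7% or more.

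Over all 2565 regions the TAATCC core formed 2 shoulders around the summit. A match started in 5.42% of the regions in the 50 bp bin centred 275 bp before the summit and in 6.59% of them in the bin 275 bp after it. In the 2 bins next to the summit the shares were 1.95% and 1.75%, and in the bins centred 925 bp before and after it they were 2.22% and 2.46%. Taken as zones on both sides, 11.2% of the regions had a match within 150 bp of the summit, 26.5% had one at 200 to 350 bp and 13.1% at 850 to 1000 bp. Of the 679 regions with a match at 200 to 350 bp, 323 (47.6%) had one inside the region's edges and in 356 every match at this distance lay outside them. The shares are of reference sequence and come with no test, since regions are not replicates.

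**Figure D1:**
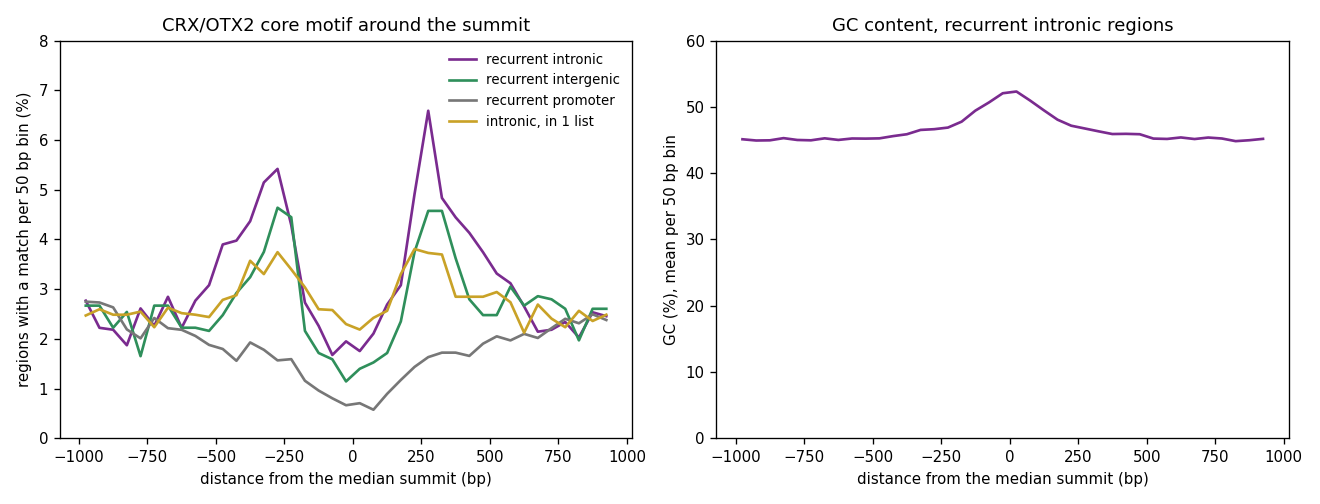
Left, percent of regions with a TAATCC match on either strand in each 50 bp bin against distance from the median summit in bp, for 4 sets of regions. Right, mean GC content of the recurrent intronic regions by the same bins. The recurrent intronic regions peak at 5.42% and 6.59% in the bins 275 bp on either side, dip at the summit and return to about 2.2% to 2.5% by 925 bp, while GC is highest at the summit (52.3%).

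The shoulders were present with the summits of each list taken on their own. Over the 981 regions covered in all 6 lists, the share with a match at 200 to 350 bp was 24.7%, 25.3% and 28.0% in control replicates 1, 2 and 3 and 24.2%, 26.6% and 22.2% in 4xIOP replicates 1, 2 and 3. Within 150 bp it lay between 8.46% and 10.9%, and at 850 to 1000 bp between 11.6% and 12.4%. The 2 groups overlapped in each zone. The lists share these regions and their DNA, so the 6 values differ only through the placement of summits.

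Other classes of region differed in the shoulders, and promoter regions showed none. At 200 to 350 bp the recurrent intergenic regions (1574) had a match in 22.8%, intronic regions covered in a single list (6357) in 18.97%, all union regions in 15.3% and recurrent promoter regions (12191) in 8.76%, against 13.1% to 14.0% at 850 to 1000 bp in all 4 of these sets. Promoter regions are rich in GC, with a median of 65.3% in the 300 bp at the summit and 70.0% of them over 50% GC with a CpG ratio over 0.6. The intronic regions had a median GC of 50.7%, and 3.82% passed both limits. Windows 2000 bp away from them had a median GC of 45.3%. GC of the intronic regions fell from 52.3% in the bin after the summit to 46.7% in the bin at 275 bp, so base composition moved together with the dip in the motif, and its part in the dip was not tested.

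The other motifs searched are given by the same zones, in shares of the intronic regions. AGGTCA was found in 24.2% of the regions at 200 to 350 bp and in 17.1% at 850 to 1000 bp. It was also frequent within 150 bp of the summit (20.4%). TGCTGA was found in 26.2% within 150 bp, 25.7% at 200 to 350 bp and 21.1% at 850 to 1000 bp, and so showed no dip at the summit. TAATTA, the core of the homeodomain factors RAX and LHX2, was found in 4.76%, 8.77% and 7.99% of the regions at the same distances and showed the dip with little of a shoulder. CAGATG, an E-box of NEUROD-type factors, stayed at 22.5% to 22.9% in all 3 zones, and ACAAAG, a SOX core, was at 20.1%, 24.2% and 24.3%. The AP-1 site (TGA, any base, TCA) was at 8.77%, 9.82% and 8.27%. The rarer MEF2 motif (TATTTATA) was at 1.36%, 3.51% and 2.85%. The SP/KLF motif (GGGGCGGGG) was at 1.404%, 1.95% and 0.858%, a ratio of the last 2 zones (2.27) above that of TAATCC (2.02). A match says only that the letters are present. In the 300 bp window centred on the summit, TAATCC was found in 11.3% of the intronic regions, 13.4% of the intronic regions in a single list, 8.51% of the recurrent intergenic, 4.33% of the recurrent promoter and 8.87% of all union regions, beside 12.9% in windows 2000 bp away.

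The regions lay in 1670 genes, of which 1538 code for protein (7.01% of the 21938 coding genes). A coding gene hosted 93.5% of the regions and a lincRNA 101 of them. The median distance to the nearest TSS was 14.9 kb (quartiles 7.29 and 29.7 kb), the largest was 324.7 kb, and 283 regions lay over 50 kb away. Intron 1 held 30.6% of the regions and the last intron 9.94%. Median width was 755 bp (quartiles 583 and 1019). Regions came in groups, since 534 genes with at least 2 regions held 55.7% of them and 39 genes held at least 5. Host genes were long (median 74.4 kb, against 25.03 kb for all coding genes with an intron stretch that the distance rule allows, called eligible below). The share of genes with a region rose from 0.652% of those under 10 kb to 28.4% of those over 300 kb, while the number per Mb of eligible intron was lowest in the longest genes (1.35, against 4.29 in genes of 10 to 30 kb).

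A few genes led by number of regions, with a tie at the fifth place. Gm20388, an annotated locus of 4435 kb on chromosome 8, held 30, of which 10 also lie in an intron of another coding gene, among them Gse1, Zfpm1 and Crispld2. Camta1, which encodes a calmodulin-binding transcription activator, held 11 regions in 944.6 kb. Fgfr2, which encodes a fibroblast growth factor receptor and is annotated here over 2961 kb, held 11, of which 8 also lie in another coding gene, Tacc2 and Ctbp2 included. Msi2, which encodes an RNA-binding protein of neural progenitors, held 10 in 379 kb. Atp8a2, encoding a phospholipid flippase of photoreceptor discs, Trappc9 and Tspan5 held 8 each. By density Tspan5 led these 7 genes, with 56.3 regions per Mb of eligible intron, followed by Msi2 with 28.2, against 2.81 over all coding genes. The regions of Gm20388 and Fgfr2 that lie in a second gene could be assigned to either.

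The hosts' own promoters were mostly marked. A promoter region of the host was covered in all 6 lists for 70.9% of the coding hosts, for 41.8% of the 16039 coding genes with an eligible intron and no such region, and for 39.5% of all coding genes. In 143 coding hosts (9.30%) no list had a promoter region. Ebf3, a transcription factor of ganglion cells, and Mmp2, a matrix metalloprotease, are hosts of this kind. Chromosome 11 had the highest density (4.67 regions per Mb of eligible intron). Chromosome X held 20 regions, 0.478 per Mb, or 0.780% of the regions on 4.35% of the eligible intron. It held 2.14% of the recurrent promoter regions and 2.287% of the recurrent intergenic ones.

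Genes of rods and of photoreceptor structure held a region in a larger share than coding genes at large, in counts that come with no test. Among 24 rod phototransduction and outer segment genes with an eligible intron, 8 were hosts, with 17 regions and 26.3 regions per Mb of eligible intron. Among 25 genes of the photoreceptor cilium, structure and synapse 13 were hosts (52.0%), and among 17 photoreceptor transcription factor genes 5 were (29.4%). The share over all 17577 coding genes with an eligible intron was 8.75%. Regions per Mb of eligible intron were 5.02 in the structure list and 8.37 in the transcription factor list. They were 2.81 over all coding genes, 4.80 in the housekeeping list (1 region) and 3.85 in the Müller glia list. The rod hosts were Gnb1 (5 regions), Pde6a and Slc24a1 (3 each), Abca4 (2), and Pde6b, Cnga1, Prph2 and Rdh12 (1 each). They encode, besides those named above, the catalytic subunits of the rod phosphodiesterase (Pde6a, Pde6b), the rod cyclic nucleotide-gated channel (Cnga1), the disc rim protein peripherin (Prph2) and the retinoid transporter of disc membranes (Abca4). Their promoters were covered in all 6 lists except that of Slc24a1, covered in 5. Median eligible length in the structure list was 75.6 kb against 16.6 kb over all coding genes, so gene length moved with its high share, and its part was not tested. In the rod list it was 10.0 kb.

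The transcription factor hosts were Esrrb with 5 regions, Casz1 with 4, Thrb with 3, Mef2d with 2 and Rora with 1. The structure hosts included the deafness and retinal degeneration gene Pcdh15, the ciliary genes Cep290, Rpgrip1, Rp1 and Rp1l1, the polarity gene Crb1 and the ribbon synapse gene Rims2 (3 regions). Lists of inner retinal and glial genes had lower shares than these 3 lists, some of them above the 8.75% of all coding genes. Of the eligible genes, 4 of 22 Müller glia (18.2%; Slc1a2, Nfix, Car2, Clu), 3 of 19 bipolar (15.8%; Prkca and Nfasc among them) and 2 of 18 ganglion cell genes (11.1%; Ebf3, Ank2) held a region, and so did 1 of 12 cone phototransduction (8.33%) and 1 of 21 amacrine and horizontal cell genes (4.76%; Meis1). Among other cells the dissection could hold, 0 of 12 microglial genes, 0 of 12 lens, cornea and muscle genes, 1 of 14 endothelial and pericyte genes (Flt1) and 1 of 12 pigment epithelium genes (Trpm3, 4 regions) did. Of genes in response lists, 2 of 56 in the TNF and NF-kB list (Dusp1, Klf9) and 4 of 56 in the senescence and secreted factor list (Fgf2, Notch1, Jag1, Mmp2) did, as did 1 of 24 housekeeping genes (Pkm).

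**Figure D2:**
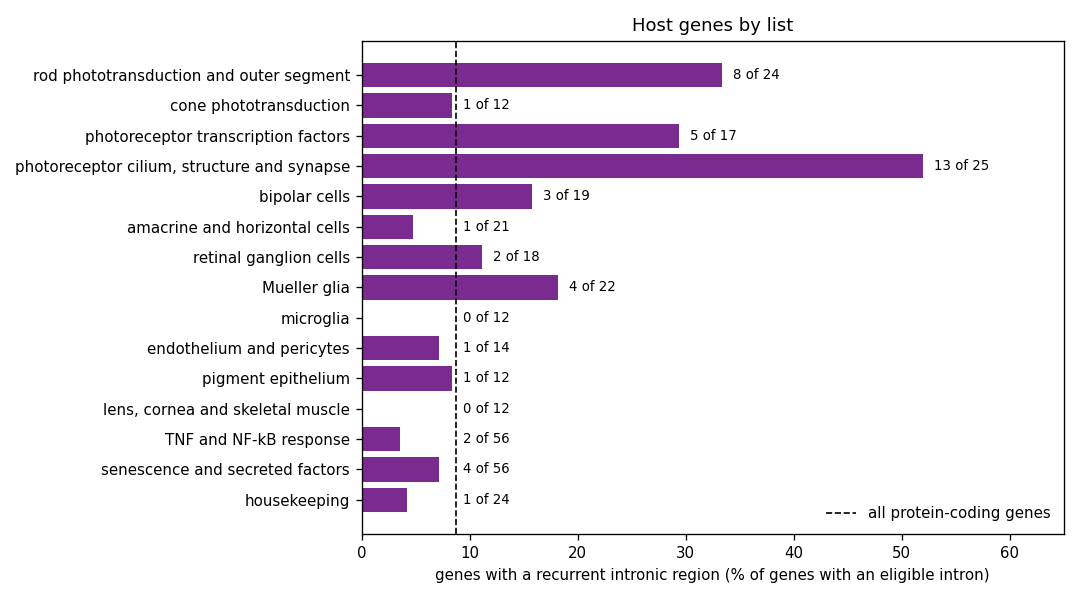
Percent of the genes of each list that hold a recurrent intronic region, of those with an eligible intron, with the counts beside each bar. The dashed line is the share over all coding genes (8.75%). The 3 longest bars are photoreceptor structure (52.0%), rod (33.3%) and photoreceptor transcription factor (29.4%) genes. The bars do not account for gene length.

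Measures of how strong a region was gave different orders, depending on whether they are divided by the local background. A peak list gives for each peak a fold over background and a p-value, and from these the whole number of fragments at the summit and the local background were recovered. The sources used here do not give whether this background came from an input library or from the sample's own reads near the peak. Over the 981 regions in all 6 lists, the median percentile of fold among the peaks of the list was 31.7, 31.2 and 47.5 in control replicates 1, 2 and 3 and 28.1, 32.4 and 22.3 in 4xIOP replicates 1, 2 and 3. The same median was 67.7 to 85.4 in recurrent promoter regions and 35.9 to 65.6 in recurrent intergenic ones. Intronic regions were lower than both in 6 of 6 lists, with a difference of -42.7 ± 2.92 percentile points against promoters and -17.1 ± 2.302 against intergenic regions (SD, n = 6, exact sign-flip permutation test, two-sided, p = 0.03125 for each, the smallest that 6 lists allow).

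Counted in fragments, the intronic regions were not the weaker class. Their median summit held 42, 42 and 66 fragments in the 3 control lists and 40, 44 and 30 in the 3 4xIOP lists, with 35, 38, 71 and 34, 32, 29 at promoter regions. Ranked by fragments over the genome mean, intronic regions stood 9.17 ± 8.82 percentile points above promoter regions (n = 6, exact p = 0.09375) and 2.42 ± 3.45 above intergenic ones (exact p = 0.25). They were higher than promoter regions in 5 of 6 lists, and than intergenic regions in 4, with equal values in 4xIOP replicate 3. Their local background was 5.00, 3.35 and 6.29 times the genome mean in the control lists and 5.28, 5.47 and 2.97 times in the 4xIOP lists. It was above that of promoters by 2.21 ± 0.736 and above that of intergenic regions by 1.00 ± 0.478 (SD, n = 6, higher in 6 of 6 lists, exact p = 0.03125 for each). The direction of the comparison of classes therefore turns with the quantity that is ranked. All 6 lists are needed for these p-values, since 5 allow no less than 0.0625.

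**Figure D3:**
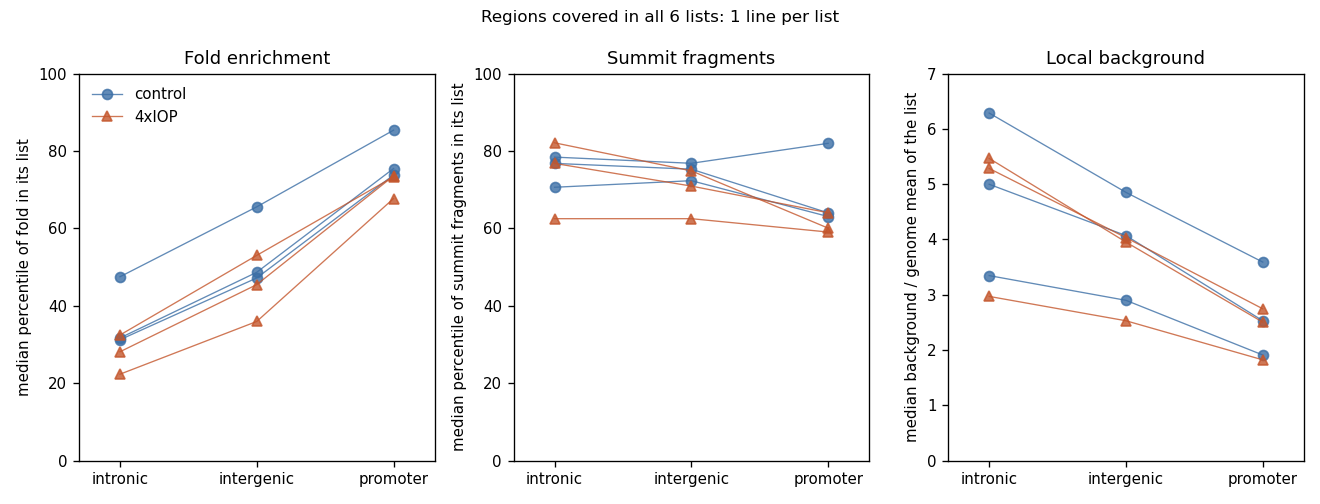
Medians over regions covered in all 6 lists, with 1 line per list (circles control, triangles 4xIOP), for recurrent intronic, intergenic and promoter regions. Fold percentile climbs from intronic to promoter regions in each list, the percentile of summit fragments is highest at intronic regions or near to it, and local background falls from 2.97 to 6.29 genome means at intronic regions to 1.82 to 3.59 at promoters.

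Intronic regions were covered over slightly less length. The median covered length per list was 590, 501 and 778 bp in control replicates 1, 2 and 3 and 540, 603 and 367 bp in 4xIOP replicates 1, 2 and 3. It was shorter than in intergenic regions by 33.3 ± 7.67 bp (SD, n = 6, 6 of 6 lists, exact p = 0.03125). Against promoter regions the difference was -64.8 ± 44.8 bp, shorter in 5 of 6 lists (exact p = 0.0625). The order of the 981 regions was alike between lists, with a mean Spearman coefficient over the pairs of lists of 0.745 for fold (0.660 to 0.807). It averaged 0.743 for pairs within a group as labelled and 0.747 for pairs across groups, and 0.758 for pairs carrying the same name and 0.737 for the others.

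The regions of highest fold were unlike the rest. Of the 29 regions in all 6 lists with a mean fold percentile over 90, 10 had another copy in the genome (at least 90% identity over 80% of 300 bp) and the median width was 461 bp. Of the 952 others 23 had another copy (2.42%), and the median width was 894.5 bp. Chl1, which encodes a neural adhesion molecule, led. Its region in intron 3 held 244, 251 and 244 fragments in the control lists and 244, 245 and 248 in the 4xIOP lists, nearly the same number in lists of different depth, and the Chl1 promoter was covered in 0 lists. The following 9 by fold were 2210408I21Rik, Cldn34d, Kctd16, Sos2, Vps45, Cmss1, Gm3448, E030030I06Rik and Tusc3, each with a mean fold percentile of 98.6 or more. Of the 10, Chl1, Cldn34d, Cmss1, Gm3448 and E030030I06Rik had 1 to 3 copies elsewhere, so their reads may be shared between loci.

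Ranked by fragments over the genome mean, a choice made after the values were seen, the first 5 were Chl1, Tmem267, Pdia5, Agpat3 and Gm3448. Tmem267 had 70 copies elsewhere. The regions of Pdia5, a protein disulfide isomerase gene, and Agpat3, an acyltransferase gene, had none. Pdia5 held 105, 103 and 159 fragments in the control and 95, 125 and 56 in the 4xIOP lists. Agpat3 held 98, 97 and 154 and then 97, 126 and 56. Both held the most fragments in control replicate 3 and lowest in 4xIOP replicate 3, and their fold percentiles averaged 29.3 and 13.4.

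The strength of single regions in known retinal genes is shown by list. The Rp1 region, 526 bp in intron 1 (chr1:4383246-4383771), held 63, 63 and 116 fragments in control and 48, 57 and 44 in 4xIOP samples. Its control values were all above its 4xIOP values in fragments, but not once divided by the genome mean of each list (28.7, 18.6 and 47.0 against 23.9, 26.9 and 17.1). Control values lay above 4xIOP values in fragments in 20.2% of the intronic regions in all 6 lists and in 26.5% of all 10529 regions, and below them in 0 intronic regions and 0.019% of all. The Pde6a region in intron 6 (chr18:61245550-61246245) held 32, 22 and 43 and then 32, 34 and 26 fragments, overlapping also. In Abca4, intron 11 (chr3:122096349-122097112), control replicate 1 had no peak, and the others held 29, 30, 19, 17 and 26.

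Among the remaining named regions, those of Rora, Ebf3 and Flt1 were covered in all 6 lists and those of Esrrb, Rims2, Meis1, Clu, Dusp1 and Pkm in 5. The region in intron 15 of Flt1, a receptor of vascular endothelial growth factor, had a mean fold percentile of 93.3, and 76.0% of its 300 bp was soft-masked repeat. It held 25, 38 and 21 fragments in control and 18, 21 and 40 in 4xIOP samples. Prkca, Ank2, Trpm3, Klf9 and Notch1 were covered in 4 lists. Nfix, the gene of a nuclear factor I protein present in Müller glia, held 49, 48 and 39 fragments in intron 2 (chr8:84751480-84753092) in control and 27, 27 and 29 in 4xIOP samples. Relative to the genome mean these were 22.4, 14.2 and 15.8 against 13.4, 12.7 and 11.3, so the control values stood above the 4xIOP ones without overlap, as they did in 12 of the 981 intronic regions in all 6 lists (1.22%) and in 1.06% of all 10529 regions. The reverse held in 0 intronic regions and 0.0665% of all. Its limma difference was -0.49 (SE 0.277, adjusted p = 0.99982).

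**Figure D4:**
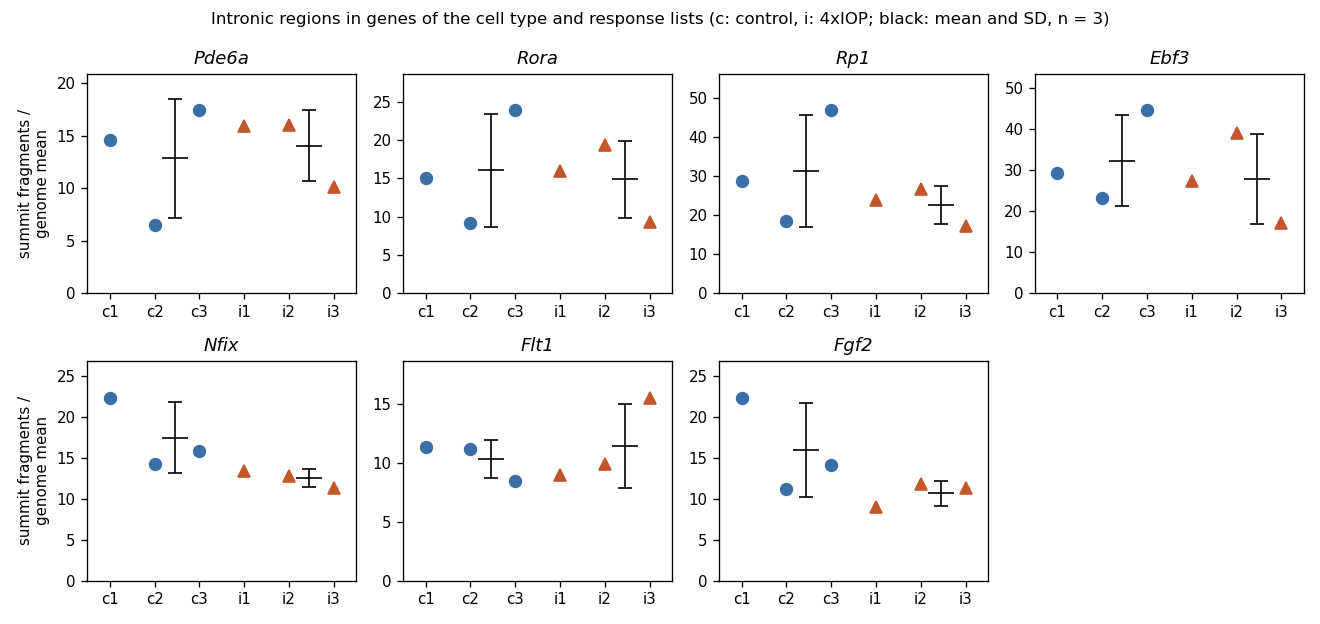
Summit fragments over the genome mean background of the list for 7 regions of the cell type and response lists that were covered in all 6 lists and named by the rule on fold percentile. Circles are control samples (c1 to c3), triangles 4xIOP samples (i1 to i3), and the black mark is the mean with its SD (n = 3). The groups overlap in 6 panels, and in Nfix the control samples lie above the 4xIOP ones, as in 1.06% of all regions.

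Fgf2, which encodes fibroblast growth factor 2, had 2 recurrent regions in intron 1. The farther one, 14.7 kb from a TSS (chr3:37364475-37365133), held 49, 38 and 35 fragments in control and 18, 25 and 29 in 4xIOP samples. Relative to the genome mean the groups overlapped (22.4, 11.2 and 14.2 against 8.95, 11.8 and 11.3), and the limma difference was 0.21 (SE 0.312, adjusted p = 0.99982). The nearer region, 4.51 kb from a TSS (chr3:37354246-37354765) and looked at after its values were seen, held 68, 67 and 17 fragments in control replicates 1, 2 and 3. Of the 4xIOP lists it was covered in replicate 3 alone, with 50. Its 3 highest lists are the 3 that carry the name of the pressure group. At Notch1, which encodes a receptor of the Notch pathway, the same 4 lists were covered, with 32, 41 and 18 fragments in control and 26 in 4xIOP replicate 3 (chr2:26500005-26500621). How many of all regions show such an order was not counted, so these 2 regions do not tell which names are right.

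The groups were compared over all regions covered in all 6 lists. Limma on normal scores of the fold rank within each list called 0 of the 981 intronic regions at a Benjamini-Hochberg adjusted p under 0.05 (smallest adjusted p 0.99982), and 0 of all 10529 regions (0% in either direction). At an unadjusted p under 0.05, 26 intronic regions were higher in 4xIOP and 14 lower, where 1.58% and 1.69% of all regions were. Ranks did not overlap between the groups in 62 intronic regions (6.32%) higher and 31 (3.16%) lower in 4xIOP, beside 4.31% and 4.05% of all regions. The median difference was 0.058 over the intronic regions and 0.005 over all, and 57.9% of the intronic regions had a positive difference against 50.6% of all. These values depended on single libraries. Without control replicate 3 the median difference over the intronic regions was 0.010 and the shares were 51.8% and 49.6%, and without 4xIOP replicate 2 they were 0.022, 51.7% and 50.5%. With all lists kept and a term for the length of the shortest peak (over 200 bp or not), they were 0.033, 53.7% and 50.7%. Leaving out a replicate also moved the unadjusted counts. The lower count was 7 of 1023 without control replicate 1, 8 of 1066 without control replicate 2 and 9 of 1058 without 4xIOP replicate 1. Over all regions it was 125 of 10708, 201 of 10967 and 202 of 10930 in these fits. Without 4xIOP replicate 3, 63 of 1475 intronic regions were higher (4.27%) and 38 lower (2.58%), beside 362 and 403 of all 12228. Ranked by fragments, with all lists, the shares of positive differences were 72.8% and 49.8%, and 32 intronic regions (3.26%) were higher and 4 (0.408%) lower at an unadjusted p under 0.05, beside 1.35% and 1.48% of all. Over all 2565 regions, with missing lists left out, 58 (2.26%) were higher and 65 (2.53%) lower, beside 1.45% and 2.95% of all 16590 regions in at least 4 lists, and 49.6% had a positive difference against 43.1%. With missing lists set at the lowest rank 14 (0.546%) were higher and 74 (2.88%) lower, near the 0.621% and 3.1% of all, and 33.5% had a positive difference against 34.4%. Adding regions and treating their missing lists were not varied apart. Each labelled group holds lists that carry both names, and no fit was made by the carried names.

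**Figure D5:**
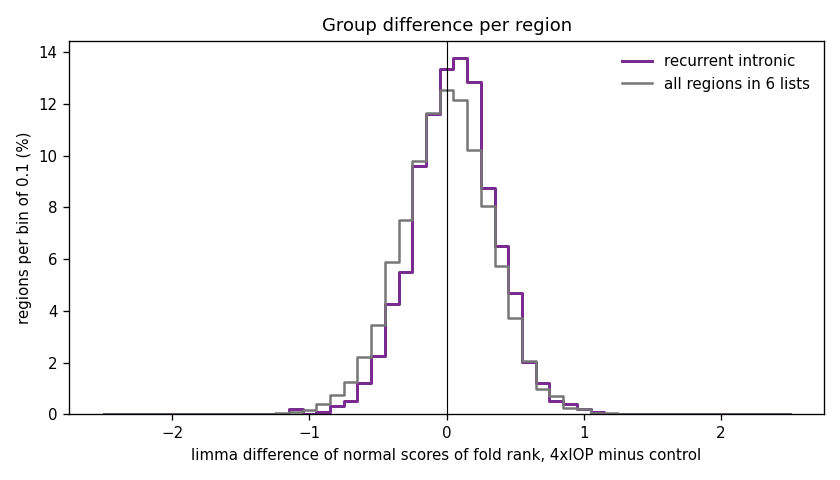
Distribution of the limma difference (4xIOP minus control, in normal scores of the fold rank) over the 981 intronic regions and over all 10529 regions covered in all 6 lists, as percent per bin of 0.1. The 2 curves lie over each other about 0, with the intronic regions to the right (57.9% above 0, against 50.6%, and 51.8% against 49.6% without control replicate 3 or 51.7% against 50.5% without 4xIOP replicate 2).

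The 3 regions per direction with the smallest p are given as the ends of that distribution, and none passed the adjusted threshold. Rnf185, a ubiquitin ligase gene, held 14, 15 and 25 fragments in control and 25, 23 and 20 in 4xIOP samples in intron 6 (chr11:3421866-3423128). Its mean fold percentile was 28.5 ± 11.3 in control and 57.1 ± 5.67 in 4xIOP samples (SD, n = 3 each, limma difference 1.006, SE 0.272, adjusted p = 0.99982). The differences of Tspan9, a tetraspanin gene, and Pitpnm2, a phosphatidylinositol transfer protein gene, were 0.90 and 0.86. On the lower side stood AC133601.1 (-1.10), Lpgat1 (-0.90), an acyltransferase gene, and Prkcz (-0.73), which encodes an atypical protein kinase C. Prkcz held 82, 66 and 114 fragments in control and 49, 61 and 37 in 4xIOP samples in intron 4 (chr4:155326106-155326760). The groups did not overlap in fragments but did so relative to the genome mean (37.4, 19.5 and 46.2 against 24.4, 28.7 and 14.4).

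The difference of the class between the groups, as labelled, did not pass its test. The mean over lists of the median fold percentile was 36.8 ± 9.27 in control and 27.6 ± 5.08 in 4xIOP samples (SD, n = 3 each), a difference of -9.18 (two-sided exact permutation test, p = 0.3, with 0.1 the smallest that 3 against 3 allow). With each list cut to the 16195 peaks of highest -log10 p the difference was 1.04, and with percentiles taken among shared regions, added after seeing the data, it was 1.151. The lists fall into 2 classes by their shortest peak (over 200 bp in control replicate 1 and 4xIOP replicates 1 and 2). The shortest peak stands in for fragment length, which was not measured. Within the longer class the difference was -1.40 and within the shorter -17.0. Control replicate 3, with the most peaks, and 4xIOP replicate 3, with the fewest, both lie in the shorter class, and the part of list size in the difference was not tested. Coverage moved with list size too. Of the 2565 regions, control replicates 1, 2 and 3 covered 2312, 2127 and 2561, and 4xIOP replicates 1, 2 and 3 covered 2203, 2328 and 1436. Regions in all 3 control lists and a single 4xIOP list numbered 309 (12.05%) and the reverse 41 (1.598%), beside 6.61% and 0.651% of all 16590 regions in at least 4 lists.

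At the limit of 4 lists, 839 intronic regions were just inside, with 745 in 5 lists and 981 in 6, and 1143 in 3 lists were just outside. A further 6357 were in a single list. Median width ran from 256 bp in 1 list to 871 bp in 6, and summit fragments over the genome mean from 7.70 to 18.6. Width is that of the merged peaks and detection depends on fragments, so both trends follow in part from the construction. At the distance limit the nearest region of all lay 2504 bp from a TSS. Among regions in all 6 lists, those 2551 bp (4931414P19Rik) and 2555 bp (Rtn4rl2) from a TSS were just inside and those at 2488 bp (Pitpnc1) and 2475 bp (Cd320) just outside. Another 5477 regions in at least 4 lists had an intronic midpoint but an edge within the limit, 2947 of them with a TSS inside.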

How the data were processed

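ChIP-seq peak lists of 6 retinas (3 control, 3 4xIOP, grouped by the labels) were used. The deposited lists hold, for each peak, the fold ratio over background, -log10 p and -log10 q; the authors' processing notes name STAR 2.7.8a, MACS2, HOMER, edgeR, bedtools 2.29.2 and build mm10, without roles or settings. Fragments at the summit were recovered as the whole number whose Poisson p, given the fold, lies within 0.001 of the deposited -log10 p (100% of peaks). Peaks on other contigs (270) were left out. Classes follow GENCODE vM21 basic on GRCm38. Group differences were tested with limma 3.58.1 (R 4.3.3) on normal scores of fold ranks, trend prior, Benjamini-Hochberg over all 10529 regions; the code was tested on simulated data. Single values were tested by exact permutation (3 against 3) and classes by exact sign-flip over 6 lists, both by full enumeration in Python 3.11.15. Ranks and normal scores were computed with scipy 1.17.1. Copies were sought with BLAST+ 2.17.0. Sequences are from the RefSeq GRCm38 genome, with none printed from the chromosome of Pde6a. The members, gene lists and motifs were chosen with earlier results of these data known. Named regions are the 10 of highest mean fold percentile over the 6 lists (1 per host gene), the first by fold percentile in up to 2 genes of each gene list, the 5 hosts with the most regions, the 3 per direction with the smallest limma p, and, at the 2500 bp limit, the nearest among regions in the most lists; others are said to be chosen after their values were seen. A few regions that this rule names are not reported here. No depth other than recovered fragments was used, and these cover counting error only. Same-numbered samples did not deviate together (correlations -0.0208, -0.0571 and -0.146), so the numbers were not taken as pairs. Alternatives varied the peaks used, the coverage needed, the annotation, the ranked quantity and the lists.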

Additional observations from a re-analysis of the deposited data

How the results depend on the processing

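The number of intronic regions was 1349 with peaks of a -log10 q of at least 5, 1416 with the same number of top peaks and 1396 where at least 50% of a region had to be covered, and 1721 to 2362 without each replicate in turn. Ranked by summit fragments, the class difference turned from -42.7 to 9.17 against promoters and from -17.1 to 2.42 against intergenic regions. Without each replicate these 2 fold differences stayed at -43.7 to -42.1 and -17.3 to -15.9, local background at 2.02 to 2.25 and 0.905 to 1.10, and covered length at -38.3 to -20.6 bp against intergenic and -76.2 to -48.3 bp against promoter regions; 5 lists allow no p under 0.0625. Covered length against promoters passed the threshold at -73 bp (-log10 q of at least 5), -63.7 bp (same number of peaks), -119 bp (50% coverage) and -74.8 bp (comprehensive annotation, added after seeing the data). The distance rule partly sets this difference in each case. The difference between groups turned to 1.04 with the same number of peaks and 1.151 among shared regions, and lay at -12.0 to -3.85 without each replicate. With the replicate block it stayed at -9.18 (exact sign-flip, p = 0.5), and the block changed no call. In the 2 lists whose own name is that of their label it was -25.2, with no test. Limma called 0 intronic regions under each of the 15 alternatives, and the 6 regions named by limma kept their sign under each alternative that covers them. These 6 are the ends of the main fit and the alternatives reuse its lists, so the kept sign is no independent check. TAATCC was found in 6.78% of 200 bp windows, in 15.1% at the midpoint, and at 200 to 350 bp from the midpoint in 18.1%, so its share depends on where the window is centred. The depth of the lists limits how far a region absent from a list can be called unmarked.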
